A study of Homo sapiens with 18 samples.

Results

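The baseline transcriptomes of H1299 and A549, a pair of established human lung cancer cell lines, were compared in the libraries that had received the control siRNA. Libraries were chosen by their titles, 3 from H1299 and 3 from A549, which is 6 of the 18 libraries of a study that knocked down the coactivators YAP or TAZ in both lines. All cells compared had been transfected with 30 nM control siRNA (siControl) for 48 h, and the last 18 h were without serum. The medium was RPMI-1640 for H1299 and DMEM for A549, both with serum, which was heat-inactivated for A549. Each line was deposited as a table of its own, so line, medium and experiment cannot be told apart in any difference given here. Whether the replicates were separate cultures is not stated in the labels, so a p-value reflects only how far these libraries scatter, and that scatter may be technical.

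H1299 is a large cell carcinoma line from a lymph node metastasis that carries an activating NRAS mutation. A549 is a lung adenocarcinoma line with inactivating mutations of KEAP1, STK11 and SMARCA4 and a homozygous deletion around CDKN2A. p53 is a transcription factor that switches on genes of cell cycle arrest, apoptosis and DNA repair. NRF2 (gene NFE2L2) switches on genes of glutathione, NADPH and xenobiotic metabolism, and KEAP1 marks it for degradation. These descriptions are background on the lines and not results of the libraries.

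The libraries held 16.8 to 18.5 M assigned reads in H1299 and 13.1 to 41.0 M in A549. Of 17094 gene symbols listed in both tables, 14746 passed the filter on low counts, and levels are given in CPM (counts per M assigned reads, M standing for 1e6, scaled by TMM) as means ± SD with n = 3 libraries per line. Differences are log2 values, H1299 minus A549, ± the standard error of the fit, and "higher" and "lower" refer to H1299 and to an adjusted p below 0.05 in edgeR's quasi-likelihood F test. By that rule 11225 genes differed (76.1% of those tested), 5551 higher (37.6%) and 5674 lower (38.5%). At least 2-fold, 5999 differed (40.7%), of which 2942 were higher (20%) and 3057 lower (20.7%), and 641 differed at least 16-fold. For 11648 genes (79.0%) all libraries of one line lay on one side of all of the other. Statements below that the lines did not overlap for a gene therefore describe what held for most genes. Without scaling of the library totals the median of all genes moved by 0.30 and the share of calls that were higher went from 49.5% to 62.1%. The first principal component, with 93.5% of the variance, separated the lines, and the second, with 2.94%, set A549 replicate 3 apart from the other 2 A549 libraries. Since bulk RNA was counted, fewer cells of a type and less RNA per cell cannot be told apart.

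**Figure D1:**
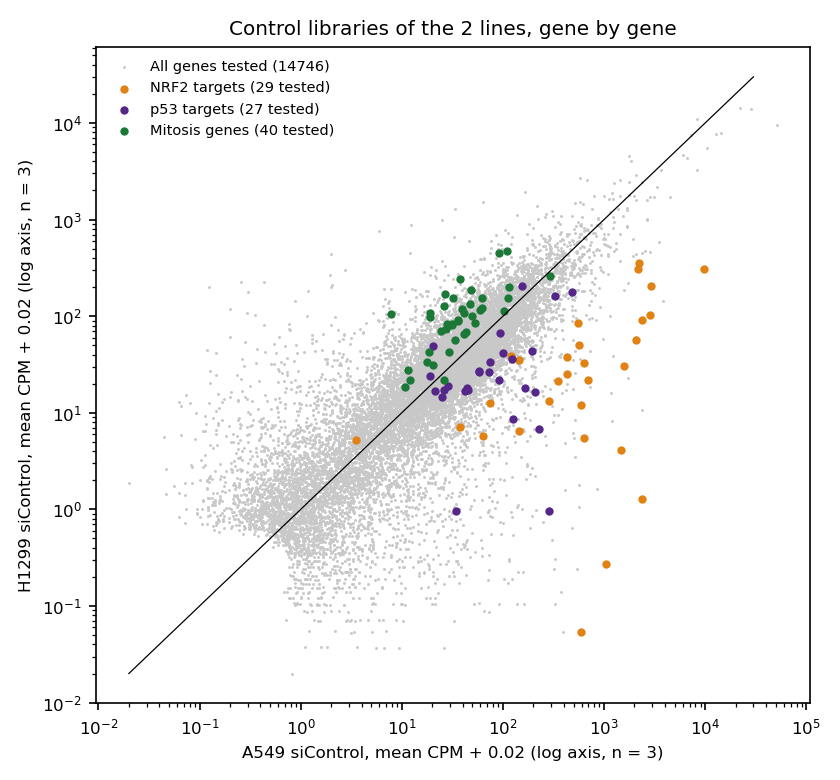
Mean CPM plus 0.02 of the 3 A549 (x) and the 3 H1299 (y) control libraries, on log axes, for each of the 14746 genes tested. Orange points are the 29 tested NRF2 targets, which with 1 exception lie below the line of equality, purple points the 27 tested p53 targets and green points the 40 mitosis genes.

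NRF2 targets were lower in H1299 as a group. Of 29 members tested, 28 were lower in H1299, each at least 2-fold, against 38.5% of all genes lower at any size. The median of the list was -4.27, and that of all genes -0.02. The sum over the listed members was 1803 to 1949 CPM in the H1299 libraries and 46457 to 50836 CPM in the A549 libraries, and the other 6 members were listed in A549 only. In both the siYAP and the siTAZ libraries, 28 of the 29 passed again in the same direction, beside 84.4% of all control calls.

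Enzymes that detoxify carbonyls and quinones are described first. NQO1, a quinone reductase that is a standard readout of NRF2, was at 86.7, 94.7 and 91.2 CPM in H1299 and at 2494, 2514 and 2148 CPM in A549, a 26.3-fold difference (log2 -4.71 ± 0.12, adjusted p = 7.22e-10). The aldo-keto reductase AKR1C1 was at 0.151, 0.314 and 0.296 CPM in H1299 and at 1223, 1037 and 889 CPM in A549 (-12.02 ± 0.24), and AKR1C2 at 1.01, 1.26 and 1.48 CPM against 2588, 2547 and 1978 CPM (-10.89 ± 0.21). All H1299 libraries were far below all A549 libraries for each of these genes. The AKR1C genes are close copies of each other, so reads may have been split between them. AKR1B1, a related reductase, differed by -5.70. CBR1, a carbonyl reductase, differed by -1.65. AKR1B10 was listed in A549 only, at 7297, 6864 and 6187 CPM, as were AKR1C3 at 1840, 1819 and 1630 CPM and the aldehyde dehydrogenase ALDH3A1 at 2995, 3494 and 2889 CPM.

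Glutathione genes showed the same order of the lines. GPX2, a glutathione peroxidase of epithelia (chromosome 14, 64939152 to 64942905, GRCh38), had 2 reads over the 3 H1299 libraries and 37952 over the 3 A549 libraries. The ratio of the pooled levels was 17956, with a 95% counting interval of 4970 to 148272. In A549 it was at 552, 641 and 563 CPM. SLC7A11, which imports cystine for glutathione synthesis, averaged 12 CPM in H1299 and 590.4 CPM in A549 (-5.63). The catalytic and modifier subunits of glutamate-cysteine ligase, GCLC and GCLM, differed by -4.07 and -4.06, and glutathione reductase GSR by -3.52. ABCC2, which exports glutathione conjugates, was at 4.43, 4.19 and 3.75 CPM in H1299 and at 1588, 1355 and 1431 CPM in A549, a 354-fold difference, and its relative ABCC3 averaged 5.52 ± 1.87 and 627 ± 28.9 CPM.

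The NADPH-producing enzymes, thioredoxin genes and iron storage genes of the list were lower as well. Malic enzyme ME1 averaged 13.1 and 286 CPM (-4.45), and PGD, TALDO1 and TKT of the pentose phosphate pathway differed by -2.80, -2.70 and -2.64. Thioredoxin reductase TXNRD1 was at 245, 177 and 199 CPM against 2923, 2789 and 2956 CPM (-3.80), and sulfiredoxin SRXN1 differed by -2.4. The ferritin light chain FTL was at 273, 333 and 308 CPM in H1299 and at 9804, 9571 and 9883 CPM in A549, 32.0-fold apart, and the heavy chain FTH1 differed by -5.21. Both ferritins have many processed copies in the genome, which can share reads with them. Heme oxygenase HMOX1 averaged 32.6 and 629 CPM (-4.27). The exception was the carbonyl reductase CBR3, at 5.2 CPM in H1299 and 3.48 CPM in A549 (0.57 ± 0.19, adjusted p = 0.0183). Of the remaining members, TRIM16L (-4.49), UGDH (-3.50), which makes the substrate of glucuronidation, NR0B1 (-3.48) and OSGIN1 (-2.04) were lower, and CYP4F11 at 232 ± 13.9 CPM, CES1 at 33.9 ± 5.14 CPM and UGT1A6 at 0.931 ± 0.386 CPM were listed in A549 only. UGT1A6 shares exons with other genes of its locus. For CBR3 the adjusted p was 0.0667 without H1299 replicate 3 and 0.0758 without A549 replicate 1.

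The regulators themselves differed less than the NRF2 targets did at their median (-4.27), though not less than every target. NFE2L2 was at 90.5, 82.0 and 69.9 CPM in H1299 and at 212, 194 and 206 CPM in A549 (-1.33 ± 0.11, adjusted p = 1.27e-06), and 11 annotated genes overlap it. KEAP1 averaged 86.4 CPM in H1299 and 95 CPM in A549 and did not pass the test (-0.14 ± 0.09, adjusted p = 0.179). Without A549 replicate 3 it was at -0.22 with an adjusted p of 0.0277, and without scaling of the library totals at 0.16.

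**Figure D2:**
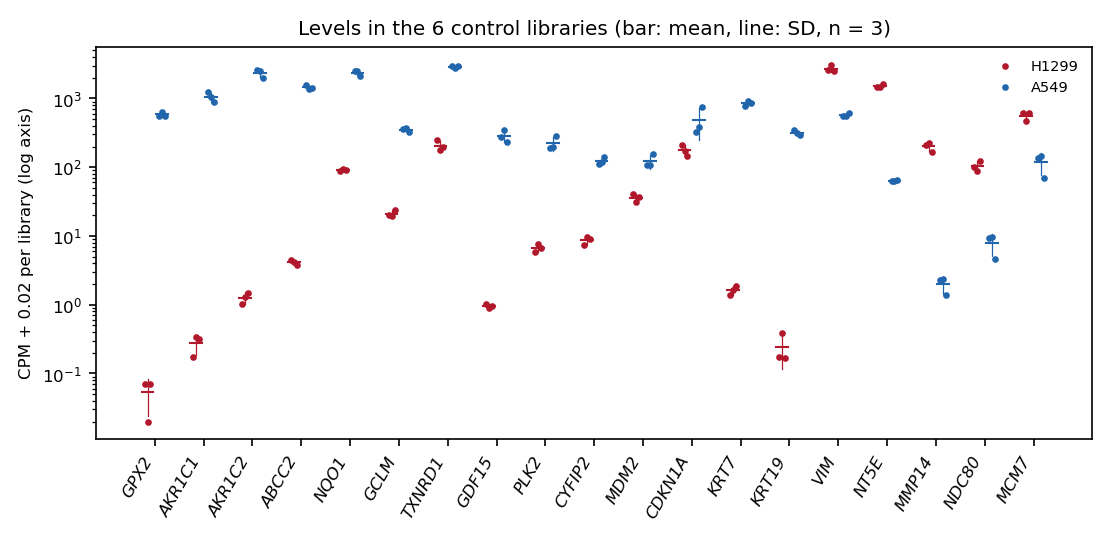
CPM plus 0.02 in each control library (log axis) of leading genes, with H1299 in red and A549 in blue, 3 points per line, a bar at the mean and a line for the SD. For the NRF2 target NQO1 the A549 points are at 2148 to 2514 and the H1299 points at 86.7 to 94.7, and for the mesenchymal gene VIM the H1299 points are the higher ones.

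NRF2 binds antioxidant response elements, whose core was searched as TGACNNNGC on both strands of RefSeq promoter windows (GRCh38.p14) from 250 bases before to 50 bases after the annotated start. Of the 24 list members with a window, 8 held the core (33.3%), against 3702 of 27305 windows of all genes (13.6%). The windows of 3 members from the glutathione and thioredoxin groups are shown because they hold the core in genes described above, and capitals mark it. They are written along the gene, so a core on the opposite strand appears as its reverse complement. GPX2 (chr14:64942696-64942995, minus strand) holds 1 match, TXNRD1 (chr12:104215529-104215828, plus strand) holds 2, of which 1 spans the start, and GCLM (chr1:93909381-93909680, minus strand) holds 1.
GPX2: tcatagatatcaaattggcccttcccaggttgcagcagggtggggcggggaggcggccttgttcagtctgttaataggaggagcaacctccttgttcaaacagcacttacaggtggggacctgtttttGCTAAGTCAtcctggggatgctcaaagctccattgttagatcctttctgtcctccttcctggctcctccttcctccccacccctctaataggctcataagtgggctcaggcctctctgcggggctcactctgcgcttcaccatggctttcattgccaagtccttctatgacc
TXNRD1: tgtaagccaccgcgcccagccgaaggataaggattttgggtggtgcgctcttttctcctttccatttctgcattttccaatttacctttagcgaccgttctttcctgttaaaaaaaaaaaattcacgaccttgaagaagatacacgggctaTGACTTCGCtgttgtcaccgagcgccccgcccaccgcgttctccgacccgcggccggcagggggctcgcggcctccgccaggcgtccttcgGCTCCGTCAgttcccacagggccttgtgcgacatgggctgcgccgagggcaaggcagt
GCLM: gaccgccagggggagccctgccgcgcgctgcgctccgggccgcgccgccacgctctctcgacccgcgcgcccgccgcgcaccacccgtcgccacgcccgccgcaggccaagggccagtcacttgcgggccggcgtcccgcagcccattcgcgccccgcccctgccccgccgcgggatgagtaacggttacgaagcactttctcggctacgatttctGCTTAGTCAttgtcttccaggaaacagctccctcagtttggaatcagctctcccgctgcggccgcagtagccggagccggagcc

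In GPX2 the match lay 122 to 114 bases before the start, in GCLM 34 to 26 bases before it, and in TXNRD1 from base -99 to -91 and from base -8 to 1. ME1, CBR1, PGD, PIR and CYP4F11 held the core too. NQO1, AKR1C1, AKR1C2, GCLC and FTL did not hold these letters within their windows. A match is a description of the sequence, and binding was not measured.

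Targets of p53 were lower in H1299 as a group. Of 27 members tested, 24 were lower, 19 of them at least 2-fold, and 3 were higher, against 38.5% of all genes lower and 20.7% lower at least 2-fold. The list median was -1.29, and the sum over listed members was 1055 to 1171 CPM in the H1299 libraries and 2941 to 3957 CPM in the A549 libraries. In the other 2 siRNA arms, 25 of the 27 kept their direction and passed, beside 84.4% of all control calls. A549 replicate 3 had the highest sum, and without it 23 members were lower and 3 higher, with a median of -1.05.

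GDF15, a secreted stress cytokine, was at 1.01, 0.891 and 0.938 CPM in H1299 and at 276, 346 and 236 CPM in A549, 303-fold apart (-8.24 ± 0.20). PLK2, a polo-like kinase, was at 5.84, 7.55 and 6.76 CPM against 192, 199 and 285 CPM (-5.07 ± 0.19). The lines did not overlap for either gene, which held for 79.0% of all genes tested. The actin regulator CYFIP2 was at 7.30, 9.70 and 9.03 CPM in H1299 and at 112, 121 and 143 CPM in A549. RPS27L, a ribosomal protein-like gene, was at 14.3, 17.5 and 17.0 CPM against 178, 205 and 236 CPM. BTG2, an antiproliferative gene, differed by -5.19.

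The classical effectors of arrest, apoptosis and feedback differed by smaller amounts. CDKN1A, which encodes the CDK inhibitor p21, was at 213, 175 and 148 CPM in H1299 and at 323, 381 and 753 CPM in A549 (-1.44 ± 0.28, adjusted p = 0.000813). A549 replicate 3 was the highest, and the lines did not overlap with or without it. MDM2, the ubiquitin ligase of p53, was at 40.1, 31.1 and 37.0 CPM against 109, 106 and 158 CPM (-1.78 ± 0.16). The apoptosis gene BAX differed by -2.16, the death receptor FAS by -1.12, the repair genes DDB2 and XPC by -1.27 and -1.14, and BBC3 by -0.60. TP53I3 (-3.18), the ferredoxin reductase FDXR (-2.10), the exonuclease AEN (-1.44), TRIAP1 (-1.40), the glycolysis regulator TIGAR (-1.34), ZMAT3 (-1.29), TP53INP1 (-1.15), the death receptor TNFRSF10B (-1.03), the sestrins SESN1 and SESN2 (-0.77 and -0.58) and the ribonucleotide reductase subunit RRM2B (-0.49) were lower too. The other 3 members, PHLDA3 at 126 ± 21.1 CPM, EDA2R at 59.9 ± 5.75 CPM and SPATA18 at 38.2 ± 5.05 CPM, were listed in A549 only. Higher in H1299 were the kinase PLK3 (49.2 and 20.2 CPM, 1.30), CCNG1 (0.42) and the polymerase POLH (0.32). The calls of POLH (adjusted p = 0.0407) and of PMAIP1 (-0.34, adjusted p = 0.0322) were lost when single libraries were left out, with adjusted p of 0.0855 to 0.154 over 4 leave-outs for POLH and of 0.0513 to 0.0906 over 5 for PMAIP1.

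Among lung cancer drivers and suppressors, 8 of 20 tested members were higher in H1299 (40%) and 10 lower (50%). Over all genes the shares were 37.6% and 38.5%. STK11, the LKB1 kinase, was at 111, 116 and 119 CPM in H1299 and at 36.6, 41.7 and 41.7 CPM in A549 (1.53 ± 0.09). SMARCA4, the BRG1 ATPase of SWI/SNF complexes, was at 25.7, 28.0 and 27.5 CPM against 12.9, 11.7 and 9.18 CPM (1.25 ± 0.13). Every A549 library was below every H1299 library for both. SMARCA2, the alternative ATPase, had the opposite order, at 33.5 ± 2.80 and 89.5 ± 11.2 CPM (-1.42 ± 0.11). NF1, a negative regulator of RAS, averaged 58.7 and 139 CPM (-1.24 ± 0.08).

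Other drivers differed by smaller amounts. NRAS differed by 0.48, and HRAS did not pass the test (-0.18). EGFR averaged 109.5 and 238 CPM (-1.12), and MET and ERBB2 differed by -0.97 and -0.72. MYC averaged 121 and 102 CPM (0.24, adjusted p = 0.0246), a call lost without H1299 replicate 1 or 3 or A549 replicate 1 or 2, with adjusted p of 0.0631 to 0.118. BRAF differed by -0.34, with an adjusted p of 0.0561 without H1299 replicate 1. ARID1A, another SWI/SNF subunit, was higher by 1.01, RB1 by 0.51 and PIK3CA by 0.35, and MYCL was lower and near 0 in both lines (0.441 and 1.31 CPM, -1.66). ALK, ROS1 and RET were listed in A549 only, at 0.264, 0.706 and 2.21 CPM.

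The region of CDKN2A on the short arm of chromosome 9 separated the tables. CDKN2A (21967753 to 21995301, GRCh38), which encodes p16 and p14ARF, was at 82.2, 95.9 and 79.2 CPM in H1299. Its neighbour CDKN2B (22002903 to 22009363), which encodes p15, was at 50, 59.2 and 42.4 CPM there. Neither gene was listed in A549, and the antisense gene CDKN2B-AS1 was listed in H1299 only, at 1.24 CPM. MTAP, a methionine salvage enzyme (21802543 to 21937651), was at 57.5, 51.4 and 51.6 CPM in H1299 and at 0.292, 0.406 and 0.0843 CPM in A549, where it had 20 reads in all (7.4 ± 0.21, 169-fold, adjusted p = 1.18e-09). Without A549 replicate 2 the difference of MTAP was 8.08. Coding genes further out were counted in both lines. FOCAD averaged 52.1 and 67.4 CPM, KLHL9 38 and 86.1 CPM, HACD4 0.401 and 8.79 CPM, IFNE 0.438 and 2.56 CPM, MLLT3 24.2 and 52.8 CPM, and DMRTA1, on the other side, 4.12 and 6.67 CPM.

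**Figure D3:**
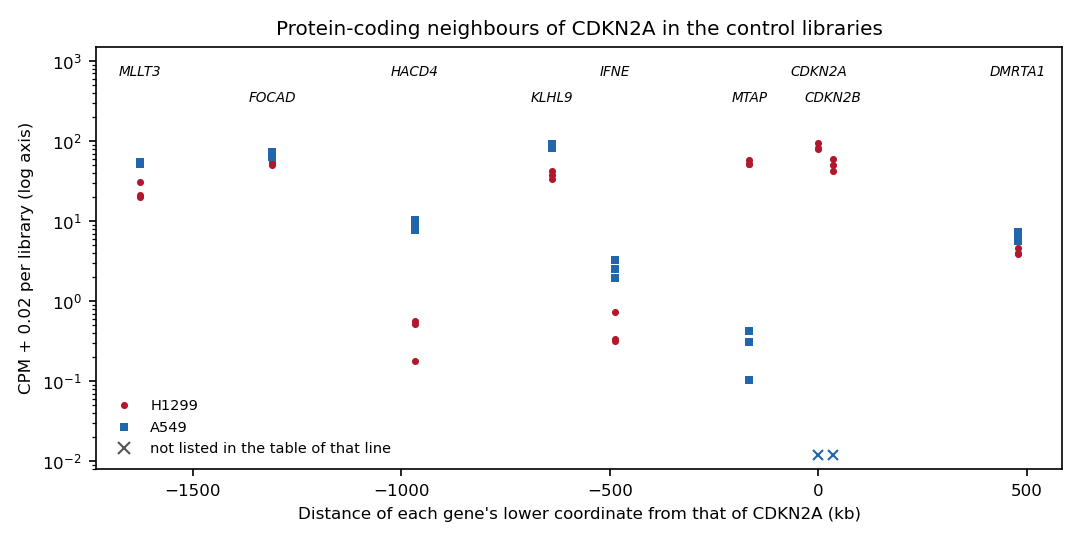
CPM plus 0.02 per control library (log axis) of protein-coding genes around CDKN2A, against the distance in kb between the lower coordinates of each gene and of CDKN2A. MTAP is at 51.4 to 57.5 CPM in H1299 (red) and at 0.0843 to 0.406 CPM in A549 (blue), and crosses mark genes that a line's table does not list.

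The list of CDK inhibitors, pocket proteins, cyclins D and partners, which also holds MTAP, had 12 of 19 tested members higher, MTAP included, and 4 lower. The shares were 63.2% and 21.1%, beside 37.6% and 38.5% of all genes. CDK6, the partner of D cyclins, was at 243, 214 and 192 CPM in H1299 and at 34.2, 38.3 and 39.8 CPM in A549 (2.53 ± 0.11). CCNE2, an E cyclin, averaged 13 and 1.96 CPM (2.70), and the INK4 family member CDKN2D 24.8 and 4.84 CPM (2.35). E2F1 and E2F2, which drive S phase genes, differed by 1.88 and 2.67. CCND1 averaged 436 and 281 CPM (0.63), while CCND3 and CCNE1 were lower (-0.82 and -0.59). CDK4, CDKN1B and RBL1 did not pass the test.

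Proliferation genes were higher in H1299 as groups. Over all genes, 37.6% were higher, 20% at least 2-fold, and 38.5% lower, with a median of -0.02. Of 40 mitosis genes, 35 were higher (87.5%), 24 of them at least 2-fold, and the other 5 did not pass (median 1.31). Of 37 DNA replication genes, 30 were higher and 2 lower (median 1.39), with 1 lower without A549 replicate 2. The summed level of the mitosis genes was 4077 to 5585 CPM in H1299, and 2108, 2577 and 1101 CPM in A549. A549 replicate 3 had the lowest sum in both groups, and the lines did not overlap. Without that library 35 mitosis genes were higher and 2 lower, which were TOP2A (-0.45, adjusted p = 0.0131) and NEK2 (-0.60, adjusted p = 0.0031), and 29 replication genes were higher and 3 lower. In both other siRNA arms, 18 of the 35 mitosis calls and 26 of the replication calls were found again in the same direction. Of all control calls 84.4% were, so the mitosis calls repeated less often than calls in general.

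NDC80, a kinetochore protein, was at 102, 89.0 and 124 CPM in H1299 and at 9.19, 9.73 and 4.63 CPM in A549 (3.72 ± 0.23, adjusted p = 1.75e-07). CDCA8 of the chromosomal passenger complex was at 98.5, 90.7 and 131 CPM against 18.5, 26.2 and 13 CPM (2.46). UBE2C, a ubiquitin-conjugating enzyme of the anaphase-promoting complex, was at 178, 155 and 177 CPM against 26.8, 39.4 and 14.8 CPM (2.65). For these 3 genes every H1299 library was above every A549 library, and 79.0% of all genes tested had no overlap in either direction. MCM7, a subunit of the replicative helicase, was at 614, 469 and 609.7 CPM against 138, 147 and 70.4 CPM (2.25 ± 0.24), and the licensing factor CDT1 and the replication factor CDC45 differed by 2.54 and 2.75. DUT, RFC2 and CHAF1A, the members with the smallest p among those that were higher, differed by 1.09, 1.62 and 2.09. PCNA, the sliding clamp, had the opposite order, at 97.2, 75.7 and 91.8 CPM in H1299 and at 280.2, 323 and 216 CPM in A549 (-1.63 ± 0.15). PCNA is also a known p53 target. TOP2A, named after its values were seen, averaged 259 and 291 CPM and did not pass the test with all libraries (-0.17, adjusted p = 0.555).

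Epithelial genes were lower in H1299. Of 23 tested members of the list of junction and keratin genes, 18 were lower (78.3%) and 3 higher (13%). Of the 18, 16 were lower at least 2-fold, and the list median was -1.84. Over all genes, 38.5% were lower, 20.7% at least 2-fold, and 37.6% higher. Another 5 members were listed in A549 only. KRT7, a keratin of simple epithelia used to mark lung adenocarcinoma, was at 1.36, 1.62 and 1.88 CPM in H1299 and at 781, 929.9 and 866 CPM in A549 (-9.05 ± 0.16). KRT19 was at 0.151, 0.367 and 0.148 CPM against 345, 312 and 299 CPM (-10.50 ± 0.20). KRT8 and KRT18, which pair in simple epithelia, were present in both lines, at 143 and 219 CPM in H1299 and at 3841 and 1706 CPM in A549.

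E-cadherin, CDH1, was listed in A549 only, at 67.4, 60.6 and 45.3 CPM. ELF3, an epithelial ETS factor, had 2 reads in H1299 and 25320 in A549, a ratio of 11979 with a 95% counting interval of 3316 to 98923. CLDN2, a pore-forming claudin, averaged 0.0846 and 160.3 CPM (-10.89). EPCAM was low in both lines, at 0.136 and 3.44 CPM. The junction protein JUP averaged 12.6 and 591 CPM, and the protease inhibitor SPINT2 5.44 and 509.8 CPM. Higher in H1299 were KRT80 (1.59), CLDN4 (0.73) and OCLN (0.38), and CDH3 was listed in H1299 only.

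Of 26 mesenchymal genes tested, 13 were higher (50%) and 8 lower (30.8%), beside 37.6% and 38.5% of all genes (median 0.52). Vimentin, VIM, was at 2573, 3087 and 2496 CPM in H1299 and at 554, 547 and 614 CPM in A549 (2.25 ± 0.12). The ectonucleotidase NT5E (CD73) was at 1463, 1459 and 1602 CPM against 63.2, 62.7 and 64.7 CPM (4.57 ± 0.11). MMP14, a membrane-anchored matrix protease, was at 210.3, 226 and 168 CPM against 2.26, 2.33 and 1.35 CPM (6.61 ± 0.19). H1299 was the higher line in every library for these genes. Among transcription factors linked to the mesenchymal state, PRRX1 differed by 6.28, TCF4 by 2.51, TWIST1 by 1.14 and ZEB2 by 0.80, and N-cadherin, CDH2, by 0.87. ZEB1 was at 25.1 ± 1.02 and 28.8 ± 0.634 CPM and did not pass (-0.20).

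Fibronectin and other mesenchymal members had the opposite order. FN1 was at 52.2, 74.6 and 47.9 CPM in H1299 and at 1083, 752 and 1089 CPM in A549 (-4.06 ± 0.21). S100A4 was at 1.51, 1.78 and 2.02 CPM against 466, 615 and 596 CPM (-8.30), and the collagen COL5A2 at 1.11, 0.839 and 0.987 CPM against 161, 136 and 163 CPM (-7.29). All A549 libraries were above all H1299 libraries for these 3 genes, and 79.0% of all genes tested had no overlap in either direction. Smooth muscle actin, ACTA2, differed by -3.64. Of 19 integrins tested, 9 were higher (47.4%) and 8 lower (42.1%), beside 37.6% and 38.5% of all genes. ITGA4, a subunit of VLA-4, averaged 59.0 and 3.12 CPM (4.25), and the laminin-binding ITGA6 893 and 180.0 CPM (2.31). The leukocyte integrin ITGAX averaged 1.12 and 34.4 CPM (-4.94), ITGA11 differed by -3.52, and ITGB1, the common partner subunit, averaged 830.2 and 1688 CPM (-1.02). The median of the integrins was 0.22, and it was -0.56 over members with at least 5 CPM in 1 line.

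Markers of blood, endothelial and fibroblast cells, checked as cell types that a culture could hold, were low in both lines. Their summed level was 4.66 to 5.53 CPM in H1299 and 12.5 to 18.3 CPM in A549, over 9 and 10 listed members of 22. PTPRC, CD3E, HBB and TEK were in neither table. The highest, CD14, was listed in A549 only, at 5.54, 8.76 and 5.64 CPM, and the only one tested, COL1A1, averaged 2.55 and 5.92 CPM (-1.19).

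Genes of secreted liver-type proteins and of the HNF transcription factors were mostly found in the A549 table alone, with 21 of 40 members listed there only and 8 in neither table. A549 listed 32 of the 40, and of all 20335 genes listed in A549, 3241 were listed there only. Some of the 21 were near 0, such as ITIH4 at 0.188 CPM. Of the 11 tested, 8 were lower in H1299 and 2 higher (median -3.20), with 1 higher without A549 replicate 1 or 2. Over all genes, 38.5% were lower and 37.6% higher. The summed level was 50.6 to 51.8 CPM in H1299 and 605 to 661 CPM in A549. The factors came first in this group. HNF4A was listed in A549 only at 31.6 ± 2.07 CPM and FOXA2 at 32.1 ± 5.86 CPM. The pioneer factor FOXA1 was at 0.604, 0.367 and 0.79 CPM in H1299 and at 33.8, 34.6 and 37.4 CPM in A549 (-5.90), and CEBPA and HNF4G differed by -2.37 and -3.20.

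Of the secreted proteins, the fibrinogen chains FGA, FGB and FGG were listed in A549 only, FGA at 50.2, 46.2 and 11.9 CPM and FGB and FGG at means of 7.32 and 7.23 CPM. A549 replicate 3 had the lowest FGA level. Ceruloplasmin, CP, was at 107 CPM and apolipoprotein APOH at 28.2 CPM in A549 only. Vitronectin, VTN, had 5 reads in H1299 and averaged 51.9 CPM in A549 (-9.26). The protease inhibitor SERPINA1 had the opposite order, at 31.6, 30.8 and 33.7 CPM in H1299 and at 1.17, 1.46 and 2.78 CPM in A549 (4.24 ± 0.22), and APOE differed by 0.81, the call that was lost without A549 replicate 1 or 2.

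Of 11 complement genes tested, 7 were lower in H1299 and 1 higher, with 2 higher without A549 replicate 3 or without scaling (MASP2 besides CD59). The 7 and 1 were 63.6% and 9.09% of those tested, beside 38.5% and 37.6% of all genes. Clusterin, CLU, averaged 101 and 1152 CPM (-3.52), and the C1 proteases C1S and C1R differed by -7.47 and -5.84. The membrane inhibitor CD59 was higher, at 686 and 237 CPM (1.53), and CD46 was lower (-1.76). C3 was listed in A549 only, at 32.9 CPM. Among mucins and airway secretory genes, 13 of 27 were listed in A549 only, including the gel-forming MUC5B at 127 ± 27.0 CPM, MUC5AC at 28.2 CPM and AGR2, a disulfide isomerase needed for mucin folding, at 277, 213 and 114 CPM. A549 listed 20 of the 27, and of all 20335 genes listed in A549, 3241 were listed there only. Others of the 13 were near 0 there, such as MUC16 at 0.0551 CPM, MUC2 at 0.2 CPM and MUC6 at 0.204 CPM. Of the 7 tested, LCN2 (-7.97) and MUC3A (-3.48) were lower, and 4 were higher, among them CREB3L1 (3.25) and MUC1 (6.19 and 2.70 CPM, 1.21).

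Several lung lineage markers were in neither table or near 0. At levels near 0, listing in 1 table only depends on depth and does not show a difference between the lines. SFTPA1, SFTPB, SFTPC, KRT5 and KRT14 were in neither table, SFTPD was listed in A549 only at 0.336 CPM and NKX2-1, the lung lineage factor, in H1299 only at 0.334 CPM. Others were found in both lines, such as ABCA3 of lamellar bodies at 149.7 and 117 CPM and AGER of type 1 cells at 5.6 and 2.85 CPM. Of the 12 tested alveolar and lung lineage genes, 8 were higher (66.7%) and 4 lower (33.3%), beside 37.6% and 38.5% of all genes. SOX9, a factor of the embryonic lung tip, was at 168, 175 and 156 CPM in H1299 and at 29.6, 34.0 and 18.1 CPM in A549 (2.60). GATA6 and SOX2 differed by 2.33 and 2.32, and the lamellar body protein LAMP3 averaged 6.20 and 0.428 CPM (3.81). Lower were ID2 (-3.61), BMP4 (-3.38), the aspartic protease NAPSA (0.663 and 2.0 CPM, -1.62) and LPCAT1 (-1.18), which makes surfactant lipid. AGER (0.96), ETV5 (0.79) and the lipid transporter ABCA3 (0.36) were higher by less than 2-fold, and so was caveolin, CAV1 (0.31, adjusted p = 0.0497), which did not pass without H1299 replicate 1 or 3 or A549 replicate 1 or 2 (adjusted p of 0.145 to 0.2).

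The genes of drug metabolism had 13 of 19 tested members lower (68.4%) and 1 higher (5.26%), beside 38.5% and 37.6% of all genes. Of 40 members, 37 were listed in A549, and 18 were listed there only, some of them near 0, such as GSTA1 at 0.156 CPM. Of all 20335 genes listed in A549, 3241 were listed there only. ALDH1A1, a retinaldehyde dehydrogenase, was at 8527, 7501 and 8515 CPM in A549 and not listed in H1299. ALDH2 averaged 0.203 and 157 CPM (-9.60), EPHX1 21.7 and 696 CPM (-5.00), and GSTP1 96.2 and 531 CPM (-2.46). CYP1B1 and ALDH3B1 differed by -3.98 and -3.22. Some of these enzymes, EPHX1 among them, are also members of the NRF2 list.

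**Figure D4:**
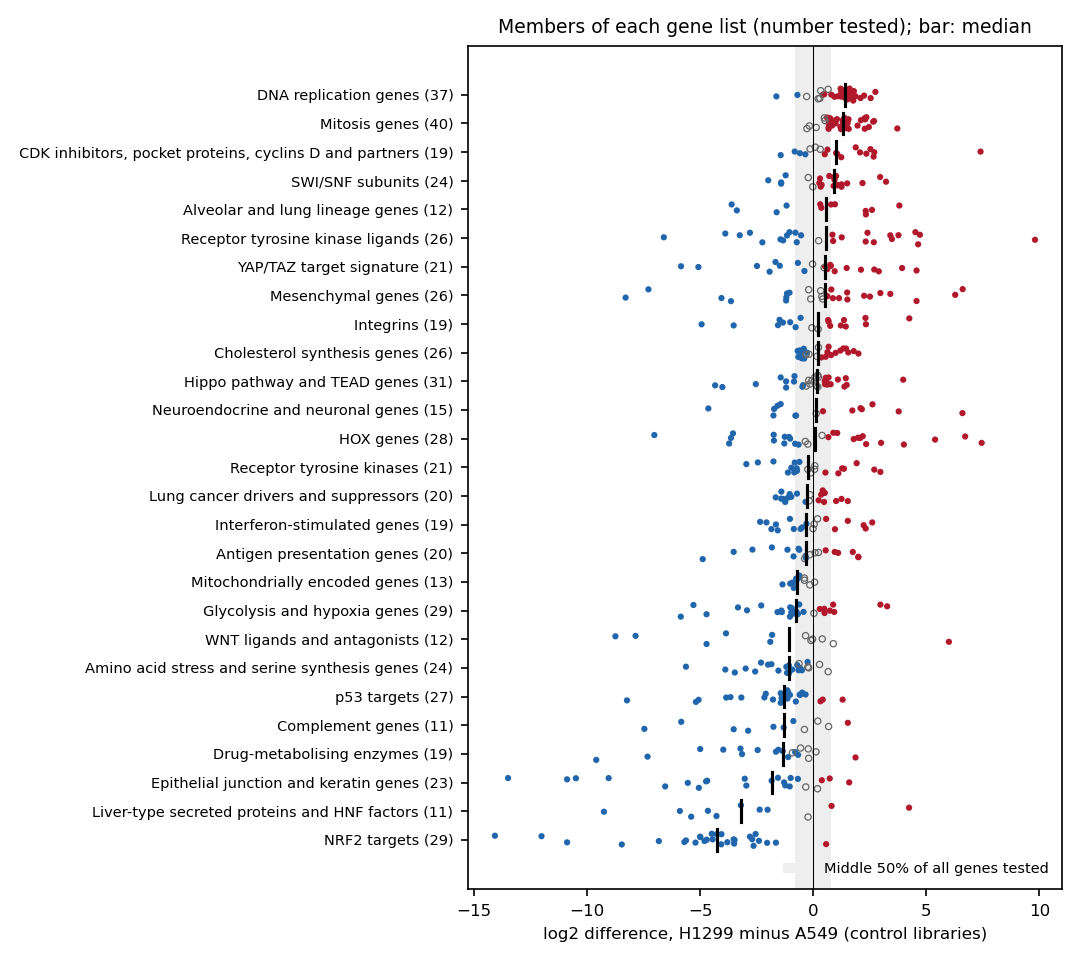
Distribution of log2 differences (H1299 minus A549) over the tested members of the gene lists with over 10 tested members, 1 point per gene, red where higher, blue where lower and open where the test was not passed, with a bar at the median and the number tested in brackets. Grey marks the middle 50% of all genes, the NRF2 targets have the lowest median (-4.27) and the DNA replication genes the highest (1.39), and HOXA11, with no H1299 read, stands at its fitted value.

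The Hippo pathway was examined because the study targets its effectors. YAP1 was at 73.4, 73.7 and 68.5 CPM in H1299 and at 65.5, 64.0 and 64.5 CPM in A549 (0.15 ± 0.08, adjusted p = 0.104). WWTR1, which encodes TAZ, was at 233, 243 and 202 CPM against 192, 202 and 195 CPM (0.20 ± 0.09, adjusted p = 0.0743). The lowest H1299 and the highest A549 level of WWTR1 were both 202 CPM, and neither gene passed the test. Both passed without scaling of the library totals (0.45 and 0.50), and WWTR1 also without H1299 replicate 3 (0.28, adjusted p = 0.0275). Of the 31 pathway genes tested, 12 were higher (38.7%), 10 lower (32.3%) and 9 did not pass. Over all genes, 37.6% were higher and 38.5% lower.

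Among the TEAD factors that YAP and TAZ bind, TEAD1 was lower in H1299 (62.1 and 142 CPM, -1.20), TEAD4 higher (36.1 and 16.8 CPM, 1.09), TEAD2 higher (0.61) and TEAD3 at 0.20 without passing. VGLL3, which competes for TEADs, averaged 1.03 and 16.6 CPM (-4.02), and VGLL4 differed by -0.48, a call lost without H1299 replicate 3 (adjusted p = 0.0571). In the kinase core, LATS1 (52.5 and 20.1 CPM, 1.38), LATS2 (0.52), STK4 (0.68) and the scaffold SAV1 (0.77) were higher, while STK3, MOB1A, MOB1B and MAP4K4 did not pass. Without scaling, MAP4K4 was at 0.24 and MOB1B at 0.37 and both passed (adjusted p = 0.0244 and 0.00873). The upstream kinases TAOK1 and TAOK3 were lower (-1.20 and -0.85) and TAOK2 higher (0.51). Scaffolds differed in both directions. WWC3, of the KIBRA family, was at 3.47, 3.88 and 4.25 CPM in H1299 and at 85.8, 76.0 and 72.5 CPM in A549 (-4.34 ± 0.12). AMOT, an angiomotin that holds YAP at junctions, was at 25.4, 25.2 and 25.4 CPM against 0.875, 1.70 and 2.19 CPM (3.98 ± 0.21). These 2 genes thus had opposite orders, with no overlap between the lines, which held for 79.0% of all genes tested. NF2, which encodes merlin, was higher (64.8 and 23.9 CPM, 1.44), as was PTPN14 (1.48). WWC1 (-1.44) and the LIM protein AJUBA, which restrains LATS (13.4 and 78.2 CPM, -2.54), were lower. The angiomotins AMOTL1 and AMOTL2 differed by -0.45 and 0.62, RASSF1 by 0.55 and LIMD1 by -0.83, and WWC2 (0.23) and FRMD6 (-0.31) did not pass with all libraries. VGLL2 was listed in H1299 only at 0.355 CPM and VGLL1 in neither table.

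Of 21 tested genes of the YAP/TAZ target signature, 11 were higher (52.4%) and 8 lower (38.1%), with a median of 0.52. Over all genes the shares were 37.6% and 38.5%. The best-known targets, CYR61 and CTGF, are matricellular proteins and are named here after their values were seen. CYR61 was at 442, 226 and 459.9 CPM in H1299 and at 23.3, 21.7 and 29.5 CPM in A549 (3.93 ± 0.26). CTGF was at 103, 74.0 and 101 CPM against 17.1, 15.3 and 32.4 CPM (2.11 ± 0.25). H1299 was higher in every library for both, with its replicate 2 the lowest. AXL, a receptor kinase, averaged 731 and 113 CPM (2.70). Other signature members had the opposite order, with ANKRD1 at -5.85, IGFBP3 at -5.08 (5.10 and 173 CPM), NUAK2 at -2.49 and DOCK5 at -1.93.

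Receptor tyrosine kinases and their ligands were mixed, beside 37.6% of all genes higher and 38.5% lower. Of 21 receptors tested, 7 were higher (33.3%) and 10 lower (47.6%). Of 26 ligands, 13 were higher (50%) and 12 lower (46.2%). IGF1R averaged 24.7 and 192 CPM (-2.96). MERTK and EPHB4 were higher (1.92 and 1.28). GAS6, the ligand of AXL and MERTK, was higher too, at 43.6 and 8.23 CPM (2.4). FGF5 was at 152, 89.7 and 112 CPM in H1299 and at 0.146, 0.0541 and 0.337 CPM in A549 (9.81 ± 0.37), a difference of 8.96 without A549 replicate 2 and of 10.52 without A549 replicate 3. The EGFR ligand AREG averaged 0.436 and 42.7 CPM (-6.61), the ERBB ligand NRG1 differed by -3.89, PDGFD by -3.25 and PDGFB by 4.64. The median of the receptors was -0.24, but 0.06 without scaling, and that of the ligands 0.55, but -0.15 over members with at least 5 CPM in 1 line. Of 12 tested WNT ligands and antagonists, 6 were lower (50%) and 1 higher (8.33%). RSPO3, which amplifies WNT signals, averaged 0.272 and 116 CPM (-8.75), its receptor LGR4 11.6 and 306 CPM (-4.72), and WNT7B 0.831 and 192 CPM (-7.86). The antagonist DKK1 was lower as well (-3.86), and WNT5B was higher, at 49.7 and 0.888 CPM (6.0). Under 10 of the 14 alternatives, 2 or 3 members were higher in place of 1, with WNT10B, WNT9A or WNT6 beside WNT5B, including 2 without H1299 replicate 2 or 3 or A549 replicate 2 or 3.

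Immune genes of the cells themselves were also mixed. Of 20 antigen presentation genes, 6 were higher (30%) and 10 lower (50%), beside 37.6% and 38.5% of all genes. HLA-B averaged 134 and 33.9 CPM (1.99) and the peptide transporter TAP2 51.0 and 15.2 CPM (1.75), while the class II gene HLA-DMA averaged 1.33 and 15.3 CPM (-3.52) and the transactivator NLRC5 differed by -1.14. HLA genes are close copies and differ between genomes, so their counts are uncertain. Of 19 interferon-stimulated genes tested, 6 were higher (31.6%) and 10 lower (52.6%). MB21D1, which encodes the DNA sensor cGAS, averaged 50.6 and 8.33 CPM (2.61) and the RNA sensor IFIH1 differed by 2.32. IFI35 was lower (-1.57). Of the chemokines and cytokines, 11 of 28 were listed in A549 only, including CXCL5 at 214 ± 20.7 CPM. A549 listed 20 of the 28, and of all 20335 genes listed in A549, 3241 were listed there only. Others of the 11 were near 0, such as IL1A at 0.0975 CPM and CCL5 at 0.118 CPM. Of the 9 tested, CSF1 (-3.85) and CXCL16 (-2.4) were lower and CCL28 (4.96) and CXCL2 (2.54) higher. The CCL28 difference was 5.72 without A549 replicate 2.

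Cancer/testis genes, silent in most adult tissues outside the germ line, were higher in H1299. All 5 tested were higher, beside 37.6% of all genes. Another 7 were listed in H1299 only, 1 in A549 only and 21 in neither. MAGEA4 was listed in H1299 only at 532 ± 35.6 CPM and MAGEA10 at 105 ± 13.1 CPM. MAGEA12 was at 63.3, 63.6 and 57.2 CPM in H1299 and at 0.292, 0.0811 and 0.169 CPM in A549 (8.73), with 8.02 without A549 replicate 2. MAGEA1, MAGEA3 and MAGEA6 differed by 6.35, 4.11 and 1.68. MAGEA genes are close copies, so reads may have been split between them. PRAME was at similar levels, 221 ± 26.2 and 171 ± 8.56 CPM (0.37, adjusted p = 0.00824).

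HOX genes, which mark position along the body axis, had 13 of 28 tested members higher (46.4%) and 12 lower (42.9%). Over all genes the shares were 37.6% and 38.5%. The HOX genes summed to 827 to 835 CPM in H1299 and 243 to 251 CPM in A549. HOXB4 was at 143, 139 and 149 CPM in H1299 and at 0.875, 0.757 and 0.927 CPM in A549 (7.45 ± 0.13), and HOXB2 averaged 297 and 2.71 CPM (6.72). HOXD9, HOXA9, HOXC8 and HOXC6 were higher by 5.39, 4.01, 3.0 and 2.34, and HOXA3, HOXC13 and HOXA13 were lower, at -3.72, -3.64 and -3.55. HOXA11 had no read in the H1299 controls and was at least 15.7-fold lower there against a floor of 3 counts over the 3 libraries. Genes of a HOX cluster overlap in the annotation, so reads may be shared. SWI/SNF subunits had 18 of 24 tested members higher (75%) and 4 lower (16.7%), with a median of 0.90. SMARCB1, a core subunit, averaged 126 and 44.1 CPM (1.5), and DPF1 and BCL7C differed by 2.96 and 2.18. SMARCE1 (24.4 and 65.2 CPM, -1.42), SMARCD3 (-1.99) and BRD7 (-1.22) were lower. Neuroendocrine and neuronal genes summed to 972 to 1025 CPM in H1299 and to 2059 to 2466 CPM in A549, where 7 were listed only there, among them CPLX2 at 932 ± 403 CPM and the neurofilament NEFL at 102 ± 64.3 CPM. Of the 15 tested, 7 were higher and 7 lower (46.7% each). The secreted VGF averaged 212 and 2.0 CPM (6.60), SCG2 differed by 3.78, TUBB3 by 2.62 and the synaptotagmin SYT1 by -1.73.

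Metabolic lists differed in direction from one to the next. Of 24 tested genes of amino acid stress and serine synthesis, 19 were lower in H1299 (79.2%) and the other 5 did not pass (median -1.08). Over all genes, 38.5% were lower and 37.6% higher. ASNS and MTHFD2 were called higher without H1299 replicate 3 and with the replicate block, and ASNS without A549 replicate 1. TRIB3, a target of ATF4, was at 22.6, 24.7 and 18.0 CPM in H1299 and at 378, 315 and 275 CPM in A549 (-3.89). ATF4 itself averaged 112 and 256 CPM (-1.19), and the amino acid transporter subunit SLC3A2 and CEBPB differed by -2.31 and -2.57. Of 29 tested glycolysis and hypoxia genes, 20 were lower (69%) and 8 higher (27.6%), with a median of -0.76. The hypoxia factors HIF1A and EPAS1 averaged 101 and 498 CPM (-2.30) and 4.64 and 269.6 CPM (-5.86). LDHA and PKM were lower (-1.41 and -1.39), and the lactate exporter SLC16A3 (595 and 76.0 CPM, 2.97) and hexokinase HK2 (37.9 and 4.01 CPM, 3.27) were higher.

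Of 26 cholesterol synthesis genes, 12 were higher, 6 of them at least 2-fold, and 10 were lower by less than 2-fold, with 1 lower without scaling. The 12 and 10 genes were 46.2% and 38.5% of the list, beside 37.6% and 38.5% of all genes. SREBF1, which drives lipid synthesis genes, averaged 1088 and 372 CPM (1.55), and the synthase FDPS and the sterol sensor SCAP differed by 1.45 and 0.99. Of the 13 genes of the mitochondrial genome, 9 were lower and the other 4 did not pass, led by MT-ND1 at 3326, 2518 and 3911 CPM against 8154, 7645 and 9312 CPM (-1.36). Their sum was 60638 to 90858 CPM in H1299 and 122519 to 128403 CPM in A549.

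The genes with the largest differences at a mean of at least 5 CPM were taken without regard to any list, 15 in each direction. All 30 were apart between the lines in all 18 libraries, whatever the siRNA, as were 59.7% of all genes tested. The 30 had been chosen for large differences without overlap in the controls, which are among the 18. Highest in H1299 was NTSR1, the receptor of the peptide neurotensin, at 182, 209 and 203 CPM against 0.146, 0.162 and 0 CPM (10.60 ± 0.22). It was followed by TMEM200A (10.07), FGF5, TDRD12 (9.09), a Tudor protein of the germ line, the transmembrane collagen COL13A1 (9.01) and MAGEA12. PCDHGA3 (8.64) overlaps 27 annotated genes of its protocadherin cluster, so its counts are uncertain. The mannosidase MAN1A1 (8.34), the lysyl oxidase LOXL1 (8.19), the Y-box protein YBX2 (7.99), filamin C, FLNC (436 and 1.96 CPM, 7.92), the sialyltransferase ST8SIA5 (7.79) and CSAG1 (7.72) came next. ZFP69 had 1 read in A549, a ratio of 348 with a 95% counting interval of 62.0 to 13774, and C12orf56 had 3, a ratio of 271 with an interval of 92.5 to 1318.

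Several of these values rest on few A549 reads and moved with single libraries. Without A549 replicate 2, NTSR1 was at 11.29, COL13A1 at 9.82, CSAG1 at 8.40 and YBX2 at 10.40. FLNC was at 8.59 without A549 replicate 3, and ST8SIA5 at 8.66 without A549 replicate 1. ZFP69 was at 9.90 without A549 replicate 1 and at 7.14 without A549 replicate 2. All stayed higher in H1299.

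Lowest in H1299 were GPX2, ELF3 and AKR1C1, described above, and PAPPA, a metalloprotease that frees insulin-like growth factors from their binding proteins. PAPPA was at 0, 0.157 and 0.0987 CPM in H1299 and at 323, 222 and 447 CPM in A549 (-11.93 ± 0.45). The matrix protease MMP7 was at 0.101, 0.262 and 0 CPM against 328, 361 and 444 CPM (-11.64), and DUSP4, a phosphatase that acts on MAP kinases, at 0.221 ± 0.109 CPM against 534 ± 14.8 CPM (-11.25). No H1299 library came near an A549 library for these genes. TRIML2 (-10.67), the lymphotoxin receptor LTBR (0.289 and 326 CPM, -10.15), PRR15 (-10.08), the lipase LIPH (-9.91) and TNFAIP2 (-9.61) followed, with CLDN2, AKR1C2 and KRT19. TGFB1I1 had 1 read in H1299, a ratio of 1507 with a 95% counting interval of 270.2 to 59574. With few H1299 reads these values moved too. PAPPA was at -12.71 and MMP7 at -12.90 without H1299 replicate 2, PRR15 was at -11.50 and TRIML2 at -11.42 without H1299 replicate 1, and MMP7, TRIML2 and TGFB1I1 were at -11.04, -10.07 and -12.05 without H1299 replicate 3.

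Genes listed in 1 table only could not be tested, since a table lists genes by the reads of its own line. H1299 had 1884 of them among 18978 genes listed, and A549 3241 among 20335. The deepest library of the whole series held 20.8 M assigned reads in H1299 and 45.0 M in A549, so weakly expressed genes could be listed more easily in A549. Of the genes listed in 1 table only, 342 in H1299 (18.2%) and 848 in A549 (26.2%) averaged at least 1 CPM, and 2 and 49 at least 100 CPM. The A549 libraries held 96.04 to 96.18% of their reads in genes of both tables, and the H1299 libraries 99.58 to 99.61%. The highest in A549 were ALDH1A1 and AKR1B10, then CA12, a carbonic anhydrase of the cell surface, at 3539 CPM, ALDH3A1 and AKR1C3. They were followed by CPLX2, a complexin of exocytosis, at 1140, 1189 and 468 CPM, with A549 replicate 3 the lowest, the calcium-binding S100A6 at 712 CPM, the vitamin D hydroxylase CYP24A1 at 691 CPM, KRT81 at 668 CPM and the melanosome transport protein MLPH at 495 CPM. The highest in H1299 were MAGEA4, MAGEA10 and CDKN2A, then VAT1L at 81.2 CPM, the factor MEF2C at 71.8 CPM, FAM9C at 71.0 CPM, ELFN1 at 61.8 CPM, the endopeptidase MME at 61.1 CPM, the decoy receptor IL13RA2 at 56.9 CPM and TDRD9, a germ line helicase, at 56.6 CPM.

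Differences were also placed along the genome. Over 12391 protein-coding genes the median was -0.03, with 38.2% higher and 39.9% lower. Chromosome medians ran from 0.80 on chromosome 6 (658 genes, 71% higher) to -0.72 on chromosome 15 (399 genes, 64.7% lower). Chromosomes 21, 19 and 9 had medians of 0.61, 0.59 and 0.46, and chromosomes 10, 17 and X of -0.52, -0.40 and -0.40. In the siYAP and siTAZ libraries the median of chromosome 6 was 0.79 and 0.88, and that of chromosome 15 was -0.75 in both. Genes on a chromosome are not independent of each other, so these values are descriptions. DNA copy number was not measured in these libraries.

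**Figure D5:**
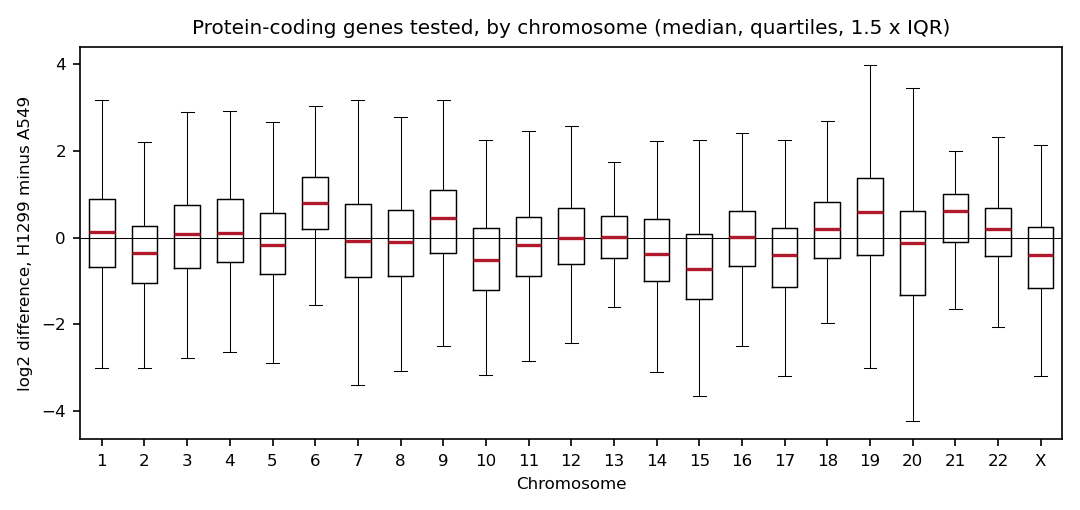
Log2 difference, H1299 minus A549, of the tested protein-coding genes by chromosome, with boxes for the median and quartiles. Chromosome 6 has the highest median (0.80) and chromosome 15 the lowest (-0.72).

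Windows of 20 neighbouring genes were ranked by their median difference, and those with the highest and lowest medians among 11954 are described. They were chosen by their medians, so many genes in 1 direction within them follow from the choice. Over all windows the 5th and 95th percentiles of the medians were -1.05 and 1.03. Of all protein-coding genes placed, 38.2% were higher and 39.9% lower. The highest median, 2.69, lay on chromosome 19 (19561707 to 23945159), where 18 of 20 genes were higher. Most of them encode zinc finger proteins with KRAB domains, a family of repressors, such as ZNF738 (5.48), ZNF493 (5.12), ZNF681 (4.80) and ZNF43 (18.4 and 2.01 CPM, 3.13). The next, 2.27, lay in another zinc finger cluster of chromosome 19 (52064466 to 53392217), where 13 genes were higher and 5 lower, led by ZNF83 (6.19). Zinc finger genes of a cluster are related in sequence, so reads may have been split. Near the start of chromosome 19 (1554669 to 2252073, median 1.79), all 20 genes were higher, among them the factor TCF3 (2.12) and the histone methyltransferase DOT1L (2.21).

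The lowest window median, -1.81, lay on chromosome 10 (3775996 to 11872277), where 18 of 20 genes were lower, among them AKR1C1, AKR1C2 and the kinase PRKCQ, and KLF6 was higher (1.63). On chromosome 15 (78264086 to 81005788, median -1.78) all 20 were lower, led by the hyaluronan-binding CEMIP (-4.59) and the protease ADAMTS7 (-4.39). On chromosome 3 (3126916 to 9788219, median -1.70), 14 were lower, led by the kinase CAMK1 (-4.19), and 3 were higher, led by LHFPL4 (5.19). The medians of the same 6 windows were 2.32, 1.93, 1.72, -1.84, -1.99 and -1.34 in the siYAP libraries and 2.37, 2.22, 1.63, -1.56, -1.98 and -1.47 in the siTAZ libraries. The order of the lines was thus the same in each.

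The siYAP and siTAZ libraries, which share no library with the controls, gave the same comparison of lines in 2 further sets of 6. Line, medium and experiment go together in these sets too. Their labels share prefixes with those of the controls, and whether they come from separate cultures is not stated. Between the siYAP libraries 75.3% of 15158 genes tested differed, 37.5% higher and 37.8% lower, and between the siTAZ libraries 74.2% of 15140, 37.1% in each direction. Of the 11225 genes called in the controls, 10126 (90.7%) were called in the same direction in siYAP and 9885 (88.5%) in siTAZ, and 12 and 10 in the opposite direction. In both arms at once the direction and the call were found again for 9475 genes (84.4%). All 9 libraries of one line lay on one side of all 9 of the other for 8805 genes (59.7% of those tested).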

How the data were processed

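Poly(A) RNA was sequenced from control siRNA libraries, 3 per line. The submitters' processing notes name cutadapt, STAR 2.4.2a, DESeq2 and build GRCh38. How reads were assigned to genes, including annotation and strand, is not given in the sources used here. Values are raw counts for each gene symbol as the authors deposited them in a table per line, and every listed gene reaches at least 6 counts in some library. Only these counts were analysed, and 36 other per-sample columns were not used.

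Counts of the 17094 genes in both tables were filtered with filterByExpr, scaled by TMM with each library's total over its own table, and tested over the 6 control libraries with edgeR 4.0.16 in R 4.3.3 (quasi-likelihood F test). P-values were adjusted by the Benjamini-Hochberg method over 14746 genes. DESeq2 1.42.0 was an alternative. On simulated data with known changes, tested for this comparison over 14746 genes, the procedure recovered 90% of 2-fold and 96% of 4-fold changes. It recovered 66% of 1.5-fold changes and made 14 false calls among 14437 unchanged genes. Few genes were changed in the simulation, whereas most genes differed between the lines. It therefore could not test how the scaling performs here. Positions came from GENCODE 29, which matched 98.3% of tested symbols. Counting intervals are at the 95% level and cover counting error only.

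The design, the 31 gene lists, their members and the rule for named genes were chosen with earlier results of these data known. The rule took, in each direction, the 15 protein-coding genes with the greatest called difference at a mean of at least 5 CPM in the higher line and no overlap between the lines, the 10 highest coding genes of each table alone, the 4 members of each list with the smallest p, all members of 5 lists (drivers, p53, NRF2, lung lineage and Hippo genes), windows of neighbouring genes and defining markers. Other genes were named after their values were seen. Some genes that this rule takes are not reported here.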

Additional observations from a re-analysis of the deposited data

How the results depend on the processing

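Over 14 alternatives (other scalings and filters, DESeq2, all 18 libraries, a replicate block, each library left out), 4603 to 7021 genes were higher in H1299 and 4282 to 5973 lower, and without 1 library 5206 to 5618 and 5350 to 5875, in each case within 1.5 times the reported counts. Replicate numbers did not pair the lines. Same-numbered libraries had correlations of 0.0879, -0.0222 and -0.0527 and others of -0.103 to 0.0907, and with the replicate block 5430 genes were higher and 5568 lower. Of 239 named genes tested, 217 kept direction and side of the threshold under every alternative. Without scaling, 5 genes that had not passed changed sign, HRAS to 0.12, KEAP1 to 0.16, MAP4K4 to 0.24 (now passing, adjusted p = 0.0244), MOB1A to 0.15 and STK3 to 0.10, and the calls of AMOTL1, BBC3, BRAF, PMAIP1, RRM2B, SESN2 and VGLL4 were lost. Of 868 counts of list members, 837 were within 1.5 times the reported one. Windows of 40 genes gave a highest median of 1.55 and a lowest of -1.66. The median of the drivers (-0.26) was 0.04 without scaling and that of the chemokines (-0.19) was 0.11. Of genes in 1 table only, 286 in H1299 and 736 in A549 reached 1 CPM in every control library. Depth limits the folds of genes with few reads in 1 line, and the A549 depths of 13.1 to 41.0 M differ more than the H1299 depths.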

Other observations

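Long noncoding genes of the tables differed between the lines too. SNHG14, the host transcript of the imprinted snoRNA clusters of chromosome 15 (24978583 to 25419462, GRCh38), was at 0.151, 0.157 and 0.346 CPM in H1299 and at 59.1, 66.9 and 93.5 CPM in A549 (log2 -8.38 ± 0.30, adjusted p = 4.3e-09 by edgeR's quasi-likelihood F test), and 99 annotated genes overlap it. LINP1, which has been linked to DNA end joining, was at 0.302, 0.419 and 0.296 CPM against 28.8, 29.8 and 37.9 CPM (-6.57). KRT7-AS, antisense to KRT7, had 3 reads in H1299 and averaged 6.44 CPM in A549, and without known strand its reads cannot be told from those of KRT7. Higher in H1299 were LINC00839, at 27.4, 26.5 and 31.5 CPM against 0.292, 0.595 and 0.843 CPM (5.63), and LINC00665, at 44.4, 40.3 and 44.5 CPM against 0.875, 1.84 and 3.45 CPM (4.44). The lines did not overlap for any of these 5 genes, which held for 79.0% of all genes tested. They were named as examples after their values were seen.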
